A study of Mus musculus with 8 samples.

Results

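Apolipoproteins are the protein part of the particles that carry cholesterol and triglyceride in blood, and 9 of their genes were followed in kidney RNA of diabetic mice: Apoa1, Apoa2, Apoa4, Apob, Apoc1, Apoc3, Apod, Apoe and Apom. They are 9 of the 55401 genes of the deposited table, found by gene name, and all 9 were among the 15150 genes that passed the filter on low values (at least 0.5 FPKM in 4 or more libraries). The set was chosen on the measured values of both groups, so the levels and group differences of its members are given as a description, with no test of the difference. Kidneys of 8 male mice were sequenced with 1 library per mouse. Mice numbered 1, 2, 3 and 5 had received recombinant fibroblast growth factor 4 (rFGF4), and those numbered 2, 3, 4 and 5 a vehicle. The sample labels give db/db for both groups, obese diabetic mice that lack a working leptin receptor, whereas the text of the study describes the sequenced animals as made diabetic with streptozotocin (STZ), and the files do not tell which model it was. For both models the regimen described was 1 mg/kg of rFGF4 injected on alternate days over 8 weeks. It began at 12 weeks of age in db/db mice, the sources differ on the age in STZ-injected mice, and none ties the regimen to the sequenced animals. No untreated or non-diabetic kidney was among the samples analysed here, and the labels give the tissue as kidney without naming a part of it.

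Chylomicrons and very-low-density and low-density lipoproteins are built on the large protein of Apob, which stays with its particle. The small proteins of the Apoa and Apoc genes, of Apoe and of Apom move between particles and steer enzymes and receptors. Liver and intestine are the main sources in the body. The kidney meets apolipoproteins from both sides, since the proximal tubule takes filtered ones back through megalin and cubilin, and it also transcribes several of the genes itself, Apom in the proximal tubule among them. Apoe is made by many cell types, macrophages included.

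Of the 9 genes, 5 lie in the conserved gene clusters of the family. Apoa1, Apoc3 and Apoa4 sit within 14.9 kb on chromosome 9 (GRCm38, GENCODE M21): Apoa1 at chr9:46228580-46230466 on the plus strand, Apoc3 at chr9:46232933-46235636 on the minus strand and Apoa4 at chr9:46240696-46243459 on the plus strand. Apoc1 (chr7:19689481-19692660) and Apoe (chr7:19696109-19699188) are neighbours on the minus strand of chromosome 7. The other members stand alone, Apoa2 at chr1:171225054-171226379 (plus), Apob at chr12:7977648-8016835 (plus), Apod at chr16:31296192-31314808 (minus) and Apom at chr17:35128997-35132050 (minus). Annotated exons of Apoa4 overlap those of Gm10680, which was listed at 0 in all 8 libraries, and of Gm47528, which reached 0.247 FPKM at most. No other gene's exons overlap those of the remaining 8.

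RefSeq windows from 250 bases before to 50 bases after the transcription start (build GRCm38.p6) were at hand for 7 of the 9 members, all but Apoc1 and Apoc3. They were searched on both strands for CAAAGNNCA, the core of sites bound by hepatocyte nuclear factor 4 (HNF4), for TATAAA, the TATA box, and for AGGTCA, the half-site of many nuclear receptors. Among all 32851 windows, 6.36% held CAAAGNNCA, 13.6% TATAAA and 16.3% AGGTCA. The HNF4-type core was found in Apoa4, starting 182 bases before the RefSeq start, and in Apob, starting 103 bases before it and written on the other strand. TATAAA was found in Apob and Apoa2, 60 and 212 bases before the start. AGGTCA was in none of the 7 windows, and those of Apoa1, Apod, Apoe and Apom held none of the motifs. The RefSeq starts of Apoa4 and Apom lie 148 and 249 bases inside the GENCODE genes. The Apom window therefore took in almost none of the sequence upstream of its GENCODE start. The following letters, 5′ to 3′ on the plus strand, are the part upstream of both the RefSeq and the GENCODE start for Apoa1 (chr9:46228380-46228579) and Apoa4 (chr9:46240594-46240695), the chromosome 9 members with a window, and for Apob (chr12:7977427-7977647), which shares the HNF4-type core with Apoa4. Capitals mark CAAAGNNCA or its complement and TATAAA. No other motif overlaps them.
Apoa1: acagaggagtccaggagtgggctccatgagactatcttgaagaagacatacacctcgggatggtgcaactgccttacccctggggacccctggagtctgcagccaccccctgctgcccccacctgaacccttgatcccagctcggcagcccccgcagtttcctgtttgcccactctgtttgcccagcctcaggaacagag
Apoa4: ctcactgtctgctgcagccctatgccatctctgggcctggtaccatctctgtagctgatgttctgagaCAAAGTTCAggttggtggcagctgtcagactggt
Apob: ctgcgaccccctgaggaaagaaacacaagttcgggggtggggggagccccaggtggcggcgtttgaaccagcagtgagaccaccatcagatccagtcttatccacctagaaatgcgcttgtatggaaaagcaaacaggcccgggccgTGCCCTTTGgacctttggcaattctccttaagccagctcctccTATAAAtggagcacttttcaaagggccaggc

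Values are FPKM, fragments scaled to exon length and to the mapped reads of the library, so that levels of different genes are on a per-length scale. The table used here holds no counts, and the number of fragments behind a value is unknown. Depth relative to vehicle mouse 2, read from the commonest ratio of low values, lay between 0.905 and 1.12. Summed FPKM was 389407 to 529835 with rFGF4 and 481321 to 552604 with vehicle, and mitochondrial transcripts made up 18.96% to 35.98% and 24.4% to 38.4% of it, differences in composition whose part in the results was not tested. The libraries were those of kidney, with all 12 proximal tubule markers above the filter, summing to 2314 to 10866 FPKM per mouse. Within each group the mice were uneven. The 10 macrophage markers summed to 2079 FPKM in rFGF4 mouse 1 and 2918 in vehicle mouse 5, against 113 to 1046 in the other 6 mice, and the 8 lymphocyte markers reached 22922 in vehicle mouse 5 (24.2 to 2722 elsewhere). rFGF4 mouse 1 also had the lowest proximal tubule sum, 2314 FPKM, with 5770 to 10866 in the remaining mice. A few genes held much of each sum. In vehicle mouse 5, Igkc gave 22334.5 FPKM of the lymphocyte sum, and Lyz2 and Cd74 gave 1269 and 1084 of the macrophage sum. Of the 10866 FPKM of tubule markers in rFGF4 mouse 3, Kap and Pck1 gave 4941 and 2641. The libraries of rFGF4 mouse 1 and vehicle mouse 5 touch several members and are named beside them. In bulk kidney RNA, fewer cells of a type and less RNA per cell cannot be told apart.

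Apoe was the most abundant member in 8 of 8 mice and alone made up 48.3% to 91.7% of the summed FPKM of all 9. Vehicle-treated kidneys held a mean of 303 ± 381 FPKM of Apoe (SD, n = 4), followed by Apom at 30.4 ± 12.1, Apoc3 at 19.2 ± 6.42, Apoa4 at 11.0 ± 5.32, Apoc1 at 6.58 ± 4.54, Apoa2 at 6.40 ± 1.60, Apob at 4.16 ± 2.39, Apoa1 at 2.54 ± 1.06 and Apod at 0.754 ± 0.605. From one rank to the next, Apoe exceeded Apom, Apoa2 exceeded Apob and Apoa1 exceeded Apod in 4 of 4 vehicle mice and 4 of 4 rFGF4 mice. Apom and Apoc3, Apoc3 and Apoa4, and Apoa4 and Apoc1 kept that order in 3 of 4 mice of each group, so that these neighbours were not separated beyond the spread between mice. Apoc1 exceeded Apoa2 in 2 of 4 vehicle mice and in 3 of 4 rFGF4 mice. The place of Apoa1 differed most: Apob lay above it in 3 of 4 vehicle mice but in 1 of 4 rFGF4 mice, and in mean level Apoa1 was eighth with vehicle (2.54 FPKM) and sixth with rFGF4 (7.06).

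**Figure D1:**
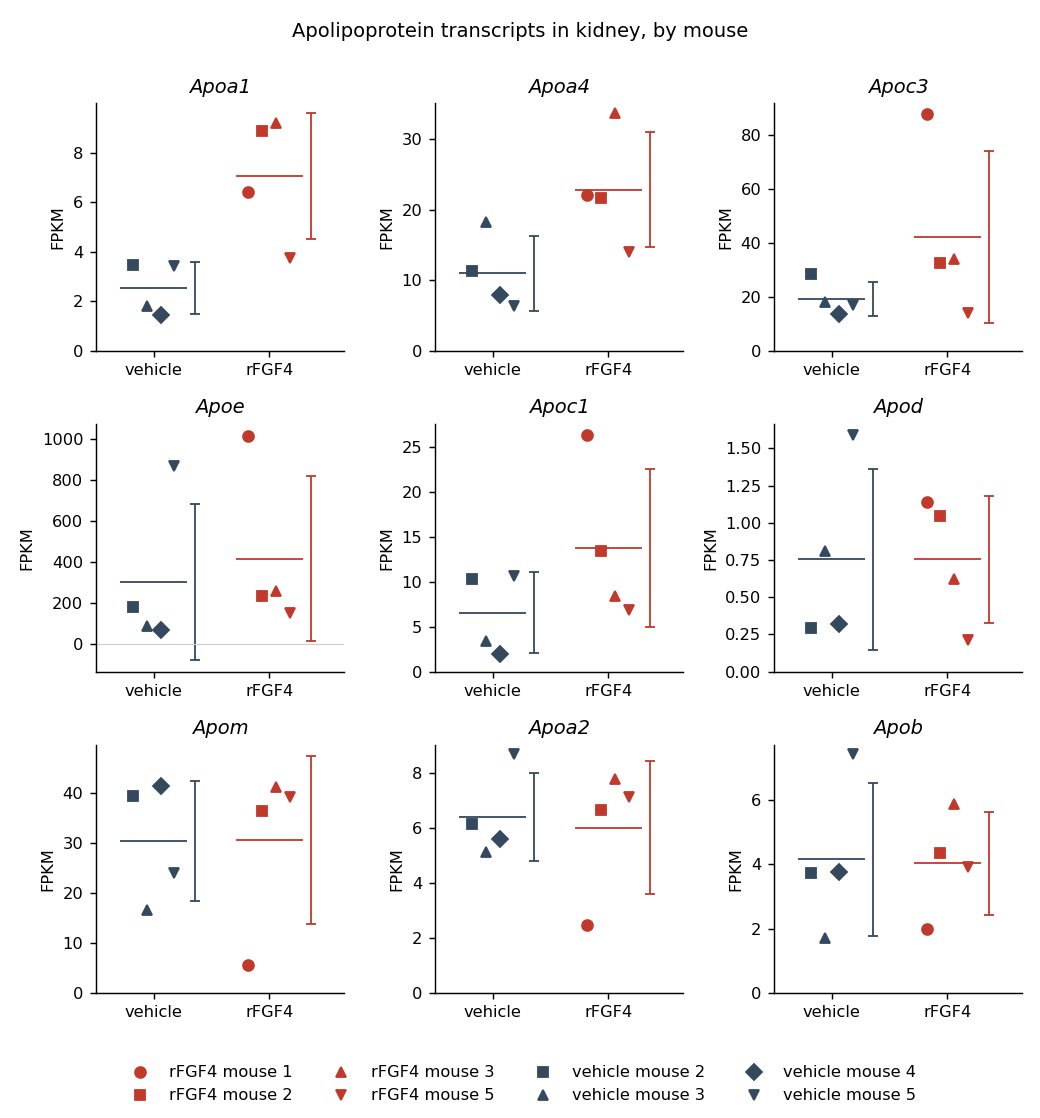
FPKM of each apolipoprotein gene in the 4 vehicle-treated (dark) and 4 rFGF4-treated (red) mice, on linear axes that differ between panels, with 1 point per mouse, a line at the group mean and a bar of 1 SD either side of it. Apoa1 is the panel in which the groups do not overlap (3.75 to 9.19 against 1.45 to 3.47 FPKM), and in the Apoe panel rFGF4 mouse 1 and vehicle mouse 5 lie far above the rest.

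Of the members, Apoa1 was the one whose groups did not overlap. It encodes the main protein of high-density lipoprotein (HDL), which activates the cholesterol-esterifying enzyme LCAT. rFGF4 mice 1, 2, 3 and 5 had 6.42, 8.88, 9.19 and 3.75 FPKM, and vehicle mice 2, 3, 4 and 5 had 3.47, 1.79, 1.45 and 3.42. All 4 rFGF4 values lay above all 4 vehicle values, although rFGF4 mouse 5 exceeded the highest vehicle mouse by a small margin. The difference was 1.18 ± 0.305 (SE) on the scale log2(FPKM + 1), and the ratio of the group means was 2.78. With each mouse left out in turn it ranged from 1.02 to 1.41. Among all genes tested, 2.66% had every rFGF4 mouse above every vehicle mouse, and nothing is read from the single member against that share, because the contrast was in view when the members were chosen.

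Apoa4, a protein made for newly formed intestinal lipoproteins and for HDL, followed with 22.1, 21.7, 33.6 and 14.0 FPKM in rFGF4 mice 1, 2, 3 and 5 and 11.3, 18.3, 7.84 and 6.35 in vehicle mice 2, 3, 4 and 5. Vehicle mouse 3 reached above rFGF4 mouse 5, and the other 3 vehicle mice lay below all rFGF4 mice. The difference was 1.03 ± 0.345 (SE) on the scale log2(FPKM + 1), with 0.832 to 1.297 when 1 mouse was left out. Without both rFGF4 mouse 1 and vehicle mouse 5 it was 0.83.

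Apoc3, between Apoa1 and Apoa4 in the cluster, encodes an inhibitor of lipoprotein lipase that slows the clearance of triglyceride-rich particles. Its levels were 87.7, 32.5, 34.0 and 14.0 FPKM in rFGF4 mice 1, 2, 3 and 5, and 28.4, 18.1, 13.5 and 16.9 in vehicle mice 2, 3, 4 and 5. In 3 of 4 rFGF4 mice it was above all vehicle mice, while rFGF4 mouse 5 was second lowest of all 8 mice. The difference was 0.85 ± 0.490 (SE, log2 scale). It was 0.41 without rFGF4 mouse 1, the animal with the highest value, and 1.27 without rFGF4 mouse 5.

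On chromosome 7, Apoe encodes the ligand by which lipoprotein remnants are taken up into cells. Its transcript stood at 1019, 238, 261 and 154 FPKM in rFGF4 mice 1, 2, 3 and 5 and at 181, 90.0, 70.8 and 871 in vehicle mice 2, 3, 4 and 5. A single animal of each group, rFGF4 mouse 1 and vehicle mouse 5, was several times above the others of its group. The groups overlapped, with a difference of 0.81 ± 0.859 (SE, log2 scale) that was smaller than its standard error. Without rFGF4 mouse 1 it was 0.25, and without vehicle mouse 5 it was 1.57. With both left out, 154 to 261 FPKM stood against 70.8 to 181, a difference of 1.01.

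Its neighbour Apoc1, a small exchangeable protein of very-low-density lipoprotein and HDL, measured 26.4, 13.5, 8.46 and 6.90 FPKM in rFGF4 mice 1, 2, 3 and 5 and 10.3, 3.38, 1.97 and 10.7 in vehicle mice 2, 3, 4 and 5. Vehicle mice 3 and 4 lay below all rFGF4 mice, and vehicle mice 2 and 5 lay among them. The difference was 1.03 ± 0.548 (SE, log2 scale), and 0.66 to 1.31 with 1 mouse left out.

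Apom, a lipocalin that carries sphingosine 1-phosphate on HDL, was at 5.52, 36.4, 41.3 and 39.3 FPKM in rFGF4 mice 1, 2, 3 and 5 and at 39.5, 16.6, 41.5 and 24.1 in vehicle mice 2, 3, 4 and 5. The group means were 30.6 ± 16.9 and 30.4 ± 12.1 FPKM (SD, n = 4), and rFGF4 mouse 1 was far below every other animal. The difference of -0.22 ± 0.620 (SE, log2 scale) turned to 0.44 without that mouse. Apoa2, the second protein of HDL by abundance in plasma, had its lowest value in the same mouse, 2.47 FPKM, with 6.65, 7.81 and 7.15 in rFGF4 mice 2, 3 and 5 and 6.16, 5.13, 5.61 and 8.71 in vehicle mice 2, 3, 4 and 5. The Apoa2 difference was -0.14 ± 0.307 (SE, log2 scale) and 0.17 without rFGF4 mouse 1.

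Apob, the backbone of chylomicrons and of very-low-density and low-density lipoprotein, gave 1.97, 4.35, 5.89 and 3.93 FPKM in rFGF4 mice 1, 2, 3 and 5 and 3.72, 1.70, 3.78 and 7.43 in vehicle mice 2, 3, 4 and 5. The groups covered nearly the same range, with a difference of 0.02 ± 0.371 (SE, log2 scale). Apod, a lipocalin unrelated in sequence to the exchangeable apolipoproteins, was near the filter, with 1.14, 1.04, 0.624 and 0.211 FPKM in rFGF4 mice 1, 2, 3 and 5 and 0.293, 0.811, 0.323 and 1.59 in vehicle mice 2, 3, 4 and 5. Its group means were 0.754 ± 0.425 and 0.754 ± 0.605 FPKM (SD, n = 4), and the difference was 0.02 ± 0.270 (SE, log2 scale).

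**Figure D2:**
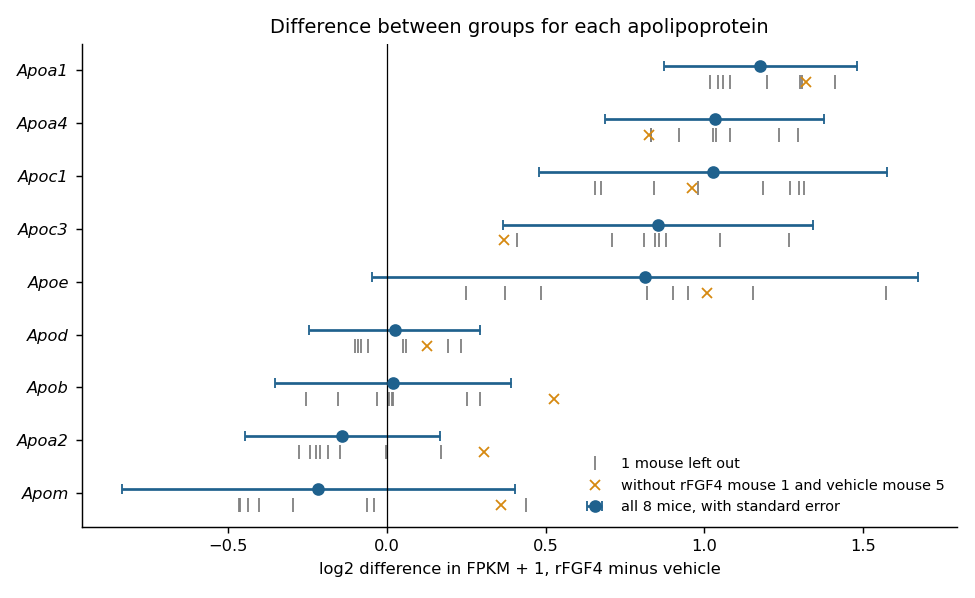
Difference between the group means of log2(FPKM + 1), rFGF4 minus vehicle, for each apolipoprotein: the circle and bar give the estimate from all 8 mice and its standard error, the ticks the estimates with 1 mouse left out, and the cross the estimate without rFGF4 mouse 1 and vehicle mouse 5. Apoa1 and Apoa4 stay above 0.8 in every fit drawn, and Apod, Apob, Apoa2 and Apom have estimates on both sides of 0.

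Across the set, 7 of 9 members had a positive difference, against a background of 67.1% of the tested genes, and the median difference was 0.81 (log2 scale) beside 0.09 over all genes tested. The positive values of Apob and Apod were within 0.03 of 0, and both became negative when each library was scaled to a common median ratio (-0.06 and -0.03), which left 5 of 9 positive and a median of 0.68 (-0.01 over all genes). The median was 0.37 without vehicle mouse 4 and 0.27 with the mouse number as a block (-0.02 over all genes). Apoa1, Apoc3, Apoa4 and Apoc1 were positive in 14 of 14 alternative fits, and Apoe in 13 of 14, with -0.19 in the fit that used the mouse number as a block. That fit also brought Apoc1 down to 0.30 and Apoc3 to 0.27, while Apoa1 was at 1.04 and Apoa4 at 0.92.

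Genes outside the set were tested with limma over all 15150 genes, by the study's threshold of a fold change of 1.5 or more (0.67 or less for lower genes) together with p under 0.05 before adjustment. The background was 1.09% of the tested genes past it as higher and 0.436% as lower. No gene passed an adjusted p of 0.05, and 700 had an unadjusted p under 0.05. Around the clusters, the neighbours of the members were looked at first. On chromosome 9, Sik3, the kinase gene beside Apoa1, differed by 0.27 ± 0.121 (SE, log2 scale), and Zpr1 and Bud13, beyond Apoa5, by 0.23 ± 0.158 and -0.04 ± 0.191. Apoa5, an activator of lipoprotein lipase made in liver, did not pass the filter on low values, with at most 0.176 FPKM in any mouse. On chromosome 7, Clptm1 and Tomm40 at the flanks differed by 0.06 ± 0.209 and 0.00 ± 0.110, Nectin2 by 0.33 ± 0.344 and Relb by 0.39 ± 0.749. Apoc2, which encodes the cofactor of lipoprotein lipase, was at 59.3 FPKM in rFGF4 mouse 1 and between 0 and 4.74 in the other 7 mice, and Apoc4 followed with 2.38 FPKM in that mouse and at most 0.562 elsewhere. Annotated exons of both overlap those of Gm44805, which was listed at 0 in rFGF4 mouse 1 and reached 0.486 FPKM at most. None of the 8 tested neighbours passed the threshold in limma, and 0 had an unadjusted p under 0.05.

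**Figure D3:**
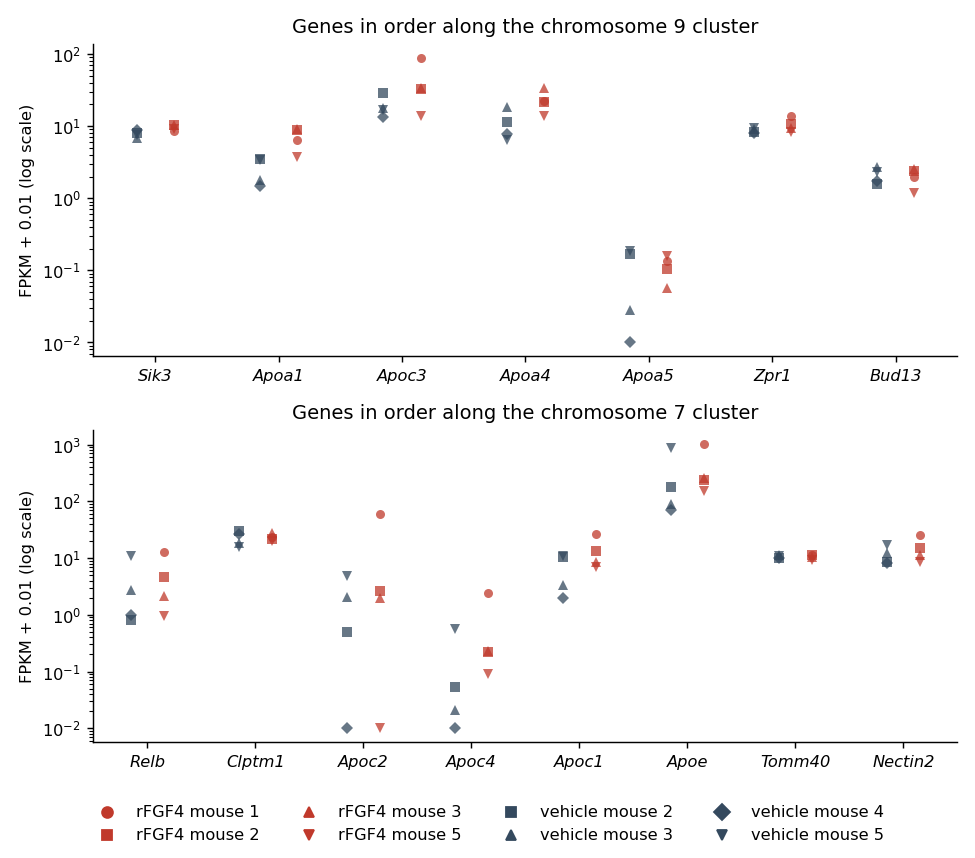
FPKM (plus 0.01, log scale) of the genes in their order along the chromosome 9 cluster (top) and the chromosome 7 cluster (bottom), with 1 point per mouse, vehicle dark and rFGF4 red. In the upper panel Apoa1 has no overlap between the groups while the flanking Sik3, Zpr1 and Bud13 have; in the lower panel rFGF4 mouse 1 is highest for Apoc2 (59.3 FPKM), Apoc1 (26.4) and Apoe (1019).

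Markers of cell types moved with some members across the mice, with 8 libraries behind each correlation, each sharing its depth and RNA between both measures. Apoe and the macrophage marker sum had r = 0.72 and rho = 0.76 on log2 values, but r = 0.49 without the 2 mice farthest from the median of the marker sum. For Apoc1 the values were 0.53, 0.71 and 0.37. For Apoc3 they were 0.40, 0.45 and 0.59, for Apoa4 0.10, 0.19 and 0.50, and for Apoa1 0.29, 0.29 and 0.21. Apod ran most closely with macrophage markers (r = 0.97, rho = 0.90, and 0.96 without the farthest 2 mice) and with the 10 fibroblast and perivascular markers (r = 0.92, rho = 0.88 and 0.85). The macrophage sums ranged from 165 to 2079 FPKM with rFGF4 and from 113 to 2918 with vehicle. With all mice, 10 of 10 markers had a positive difference, none past the threshold in limma (0 with an unadjusted p under 0.05). It was 3 of 10 without rFGF4 mouse 1, and 10 of 10 without vehicle mouse 5 or without both mice. The part of these markers in the Apoe and Apoc1 differences was not tested.

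Apom ran with the 12 proximal tubule markers, at r = 0.95 and rho = 0.90 (0.78 without the farthest 2 mice). Apoa2 had r = 0.74 with the same sum, but rho = 0.31 and r = -0.24 without the farthest 2 mice, so that the relation rested on those animals. For Apoa1 and Apoa4 it was -0.21 and -0.18. The proximal tubule sums overlapped between the groups, 2314 to 10866 FPKM with rFGF4 and 5770 to 10661 with vehicle. The difference was negative for 10 of the 12 markers with all mice and for 2 of 12 without rFGF4 mouse 1. It was negative for 11 of 12 without vehicle mouse 5 and for 6 of 12 without both mice. None passed the threshold in limma (0 with an unadjusted p under 0.05), and their part in the Apom and Apoa2 values was not tested.

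**Figure D4:**
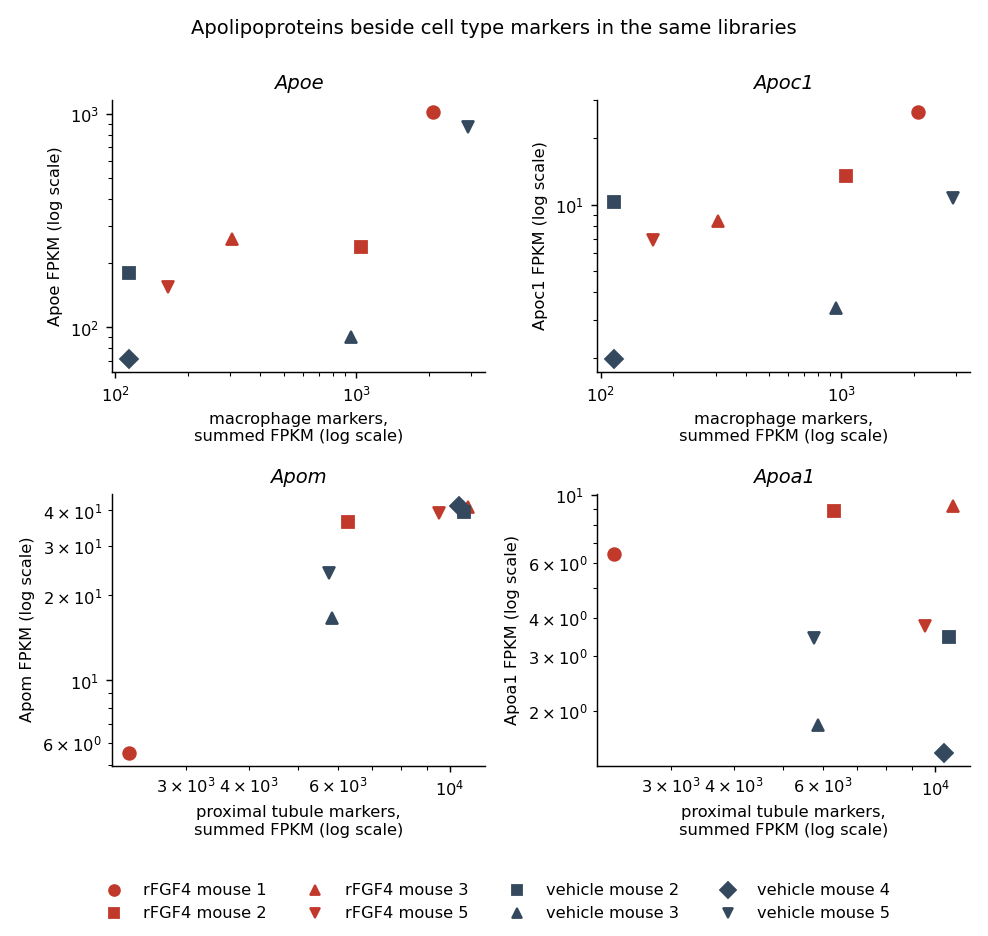
FPKM of Apoe and Apoc1 against the summed FPKM of 10 macrophage markers (top) and of Apom and Apoa1 against that of 12 proximal tubule markers (bottom), all axes logarithmic, 1 point per mouse, vehicle dark and rFGF4 red. Apom is lowest (5.52 FPKM) in rFGF4 mouse 1, where the tubule markers are lowest too (2314 FPKM), and Apoe is highest (1019 FPKM) in that mouse.

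The sum of 16 hepatocyte markers, genes of plasma proteins and enzymes of liver, went with Apoa4 (r = 0.90, rho = 0.90 and 0.91 without the farthest 2 mice) and with Apoa1 (0.68, 0.71 and 0.72). The group differences enter these correlations, which were not taken within groups. In rFGF4 mice 1, 2, 3 and 5 the sum was 921, 1155, 997 and 714 FPKM, beside Apoa1 at 6.42, 8.88, 9.19 and 3.75. In vehicle mice 2, 3, 4 and 5 it was 561, 764, 627 and 453 FPKM, beside 3.47, 1.79, 1.45 and 3.42. Vehicle mice 3 and 4, with the higher sums, thus had the lower Apoa1. Of the 13 markers tested, 11 had a positive difference, with a median of 0.48 (log2 scale), and without rFGF4 mouse 1 and vehicle mouse 5 it was 12 of 13 with a median of 0.56. Ttr (transthyretin) differed by 1.93 ± 0.917 and the fibrinogen genes Fga and Fgg by 1.44 ± 0.854 and 1.37 ± 1.07, none of these past the threshold. The part of these genes in the Apoa4 and Apoa1 values was not tested. The defining gene Alb (albumin) was low, 8.38 to 11.9 and 2.62 to 15.6 FPKM, with a difference of 0.17 ± 0.426 (SE, log2 scale). F2, Cps1 and Tat were under 0.5 FPKM in all 8 mice. Serpina1a, Serpina1b and Cyp2e1 made up 61.1% to 93.1% of the sum. Serpina1b and Serpina1a, which encode alpha-1-antitrypsins and share much of their sequence so that reads may be split between them, were 2 of 13 tested markers past the threshold, at 1.79 ± 0.395 (limma, adjusted p = 0.918) and 0.60 ± 0.257 (limma, adjusted p = 0.918). Among 7 enterocyte markers, Sis, Alpi and Cdx2 were listed at 0 in all mice, and Fabp2 reached 0.0587 FPKM at most. Vil1, which the tubule brush border also expresses, did not overlap between the groups (51.1 to 86.5 against 39.0 to 51.0 FPKM), with a difference of 0.53 ± 0.183 (SE, log2 scale) under the fold change asked for. Of 8 adipocyte markers, 6 were under 0.5 FPKM in all 8 mice. None of the 10 fibroblast and perivascular, 4 lymphocyte and 1 adipocyte markers tested passed the threshold, with 0 at an unadjusted p under 0.05 in limma.

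Of the 36 pairs of members, 7 had r above 0.7 over the 8 mice and 13 had r below 0. The pairs above 0.7 were Apoe and Apoc1 (r = 0.86, rho = 0.88), Apoa2 and Apom (0.82, 0.33), Apoa2 and Apob (0.82, 0.93), Apoc1 and Apoc3 (0.81, 0.71), Apoa1 and Apoc1 (0.76, 0.60), Apoe and Apod (0.73, 0.67) and Apoa1 and Apoa4 (0.70, 0.79). Leaving out the 2 mice farthest from the median of a gene, for each gene of the pair in turn, kept r above 0.7 both times in 1 of the 7 pairs, Apoa2 and Apob (0.86 and 0.94). For Apoe and Apoc1 it was 0.94 without the farthest mice of Apoe and 0.65 without those of Apoc1. Apoa2 and Apom turned to -0.69 without the farthest mice of Apom, so that this relation rested on those animals. Deviations from the group means gave 0.86 for Apoe and Apoc1 but 0.27 for Apoa1 and Apoa4.

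Among all tested genes, those most like a member over the 8 mice were taken by Pearson's r on log2(FPKM + 1), and picking the closest 3 from so many genes brings high values with it. Apom was closest to Slc28a1 (0.995), F13b (0.994) and Haao (0.986), and Apoe to Pdgfra (0.985), Cyp1b1 (0.985) and Ik (0.978). Apoa1 had Gm14287 (0.973), Rrp8 (0.960) and Gm7887 (0.956) nearest to it, and Apoa4 had Csrnp1 (0.970), Sesn2 (0.961) and Gm45767 (0.954). For Apoc3 they were Zfp617 (0.984), Ikbkg (0.979) and Lpin3 (0.976), for Apoc1 Gm6475 (0.988), Eef1aknmt (0.979) and Tsg101 (0.969), and for Apod Krit1 (0.994), Fam177a2 (0.992) and Gm6278 (0.984). Apoa2 was nearest to Cyp2j7 (0.960), Ago3 (0.950) and Cdkn2aip (0.938), and Apob to Scaf4 (0.948), Zdhhc6 (0.932) and Tmem120b (0.931). No gene stood in the list of more than 1 member.

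Other genes of lipoprotein metabolism were set beside the members as 5 lists with 100 genes in all, 77 of them tested. In limma 1 of the 77 passed the threshold as higher and 0 as lower, with 4 at an unadjusted p under 0.05, and their median difference was 0.16 (log2 scale) beside 0.09 for all tested genes. The gene past the threshold was Ppara, a nuclear receptor that is activated by fatty acids and regulates several apolipoprotein genes. It measured 3.27, 7.86, 15.6 and 6.88 FPKM in rFGF4 mice 1, 2, 3 and 5 and 3.26, 0.991, 4.63 and 2.19 in vehicle mice 2, 3, 4 and 5, a difference of 1.26 ± 0.447 (SE, log2 scale, limma adjusted p = 0.918). Ppara passed in 11 of 14 alternative fits. It did not pass without rFGF4 mouse 3 (0.93), without vehicle mouse 3 (0.98) or with libraries scaled to a common median ratio (1.16). In its list of 26 transcriptional regulators, 22 were tested, and Rxra, the partner of Ppara on DNA, had groups that did not overlap (16.1 to 25.1 against 13.7 to 15.0 FPKM) with a difference of 0.43 ± 0.158, under the fold change asked for. Hnf4a, the factor for which the core motif is named, differed by 0.08 ± 0.228, Nr1h3 (the liver X receptor alpha) by 0.10 ± 0.145 and the coactivator Ppargc1a by -0.18 ± 0.186, none past the threshold.

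Receptors and uptake genes, 19 of 20 tested, held none past the threshold, with 2 at an unadjusted p under 0.05 in limma. Lrp2 and Cubn, the megalin and cubilin of the proximal tubule, differed by 0.12 ± 0.410 and -0.05 ± 0.334 (SE, log2 scale), their partners Amn and Dab2 by -0.04 ± 0.152 and -0.25 ± 0.299, and Scarb1, the HDL receptor, by 0.13 ± 0.187. The 2 with a small unadjusted p were Mylip, a ubiquitin ligase gene (0.48 ± 0.184), and Gpihbp1, the anchor of lipoprotein lipase (-0.39 ± 0.156). They are named because of their values.

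In the assembly and remodelling list, 23 of 28 genes were tested and 0 passed the threshold, with 0 at an unadjusted p under 0.05 in limma. Mttp, which loads lipid onto the Apob protein, was at 2.27, 5.27, 6.87 and 3.48 FPKM in rFGF4 mice 1, 2, 3 and 5 and at 2.76, 1.25, 2.93 and 2.50 in vehicle mice 2, 3, 4 and 5. Its difference was 0.66 ± 0.300 (SE, log2 scale), and it passed the threshold without rFGF4 mouse 1, without that mouse and vehicle mouse 5 together, and with the mouse number as a block. Abca1, the transporter that loads cholesterol onto the Apoa1 protein, differed by 0.40 ± 0.556, Lcat by 0.06 ± 0.304, Lpl (lipoprotein lipase) by -0.09 ± 0.222 and Pltp by 0.09 ± 0.835.

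Further apolipoproteins outside the set gave 6 tested genes of 19, of which 5 had a positive difference and none passed the threshold, with 0 at an unadjusted p under 0.05 in limma. Clu, the gene of clusterin (apolipoprotein J), was more abundant than the members other than Apoe, and above Apoe in 3 of 8 mice (rFGF4 mouse 2 and vehicle mice 3 and 4), at 101 to 439 FPKM with rFGF4 and 61.9 to 282 with vehicle, a difference of 0.69 ± 0.589 (SE, log2 scale). Apoh, beta-2-glycoprotein I, lay at 3.25 to 10.1 and 1.44 to 8.47 FPKM (0.71 ± 0.448). Under 0.5 FPKM in all 8 mice were 7 of the 19. By the annotation in the table, chosen after the values were seen, 7 members belong to the KEGG pathway of cholesterol metabolism. Its other 34 tested genes held 0 past the threshold (2 at an unadjusted p under 0.05 in limma), with a median difference of 0.15 (log2 scale). To the KEGG pathway of PPAR signaling belong 3 members. Of its other 59 tested genes, 3 passed the threshold as higher (Ppara, Acsl4 and Fabp1) and 1 as lower (Fabp4), with 7 at an unadjusted p under 0.05 in limma and a median difference of 0.10 (log2 scale). These genes activate and bind fatty acids or, for Ppara, respond to them, and all 4 had an adjusted p of 0.918 in limma.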

How the data were processed

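Kidney poly(A) RNA of 8 mice, 4 with rFGF4 and 4 with vehicle, was sequenced with paired-end reads. The authors assembled mapped reads with StringTie, merged transcripts with gffcompare and deposited FPKM per gene. The labels' processing notes list Bowtie 0.12.2, HISAT2 2.0, StringTie 1.3.0 and the build mm8 with no role for each. The identifiers are Ensembl's, and 55141 of 55401 were found in GENCODE M21 (GRCm38). The table also holds the authors' comparison by edgeR, as deposited a fold change (ratio), its log2, a p-value and a q-value, none of which was used. A value of 0.0001 was taken as 0.

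Genes with at least 0.5 FPKM in 4 libraries were tested by limma 3.58.1 (R 4.3.3) on log2(FPKM + 1), with a trended prior variance and Benjamini-Hochberg adjustment, a test that fits FPKM. The procedure was tested on simulated data. Python 3.11.15 was used for the remaining steps. Library numbers were read as mouse numbers, since 4 animals per group are described, and p-values measure the spread between these 8 samples.

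The members, gene lists and tests were chosen with earlier results of these data known. Named are all members, up to 5 genes per list past the threshold by p, 26 genes fixed by name (the results of some list genes are not reported here), and the 3 genes most like each member. The alternatives were another pseudocount (0.1), no filter, scaling to a common median ratio, limma without the trend, each mouse left out, and a block for shared mouse numbers. Leaving out rFGF4 mouse 1 and vehicle mouse 5 together was added after seeing the data.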

Additional observations from a re-analysis of the deposited data

Results flagged for a closer look

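In rFGF4-treated mice, Apom and Apoa2 each had a single animal apart from the other 3, the same mouse 1 in both. Its gap to the nearest mouse, divided by the range of the group on the scale log2(FPKM + 1), was 0.935 for Apom (5.52 FPKM against 36.4 to 41.3) and 0.849 for Apoa2 (2.47 against 6.65 to 7.81), above Dixon's critical value for 4 values. The 2 flags came from 32 groups examined, the 9 members and 7 marker sums in both groups of mice, and chance flags about 1 group in 20. This mouse also had the lowest proximal tubule marker sum (2314 FPKM), whose part in both values was not tested.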

How the results depend on the processing

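The number of genes past the study's threshold, 231 with 165 higher and 66 lower (71.4% higher), was 348 with 249 higher at a pseudocount of 0.1. With libraries scaled to a common median ratio it was 174, of which 93 were higher and 81 lower (53.4% higher). Leaving out single mice gave 187 to 575 in all, 127 to 419 higher and 51 to 156 lower. The largest numbers came without rFGF4 mouse 5 (575) and without vehicle mouse 5 (432). The cause was not tested. At an adjusted p of 0.05 it was 0 or 1 gene in every fit run.

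Other lipoprotein genes past the threshold, 1 of 77, were 0 after scaling, 2 with a block for the mouse number (Mttp and Ppara) and 4 without rFGF4 mouse 1 and vehicle mouse 5 together (Dab2, Lrp1, Mttp and Ppara). With single mice left out it was 0 to 6: 3 without rFGF4 mouse 1 (Mttp and Ppara among them), 2 without rFGF4 mouse 2 (Cd36, Ppara), 0 without rFGF4 mouse 3, 6 without rFGF4 mouse 5 (Cebpb, Lsr, Mylip, Plin2 and Ppara among them), 2 without vehicle mouse 2 (Nr1d1, Ppara) and 4 without vehicle mouse 3 (Angptl4, Apoh, Cebpb, Plin2). The members with a positive difference numbered 5 to 8 and their median lay between 0.37 and 1.16 with single mice left out. All 9 were positive, with a median of 0.53, without rFGF4 mouse 1 and vehicle mouse 5, and 7 with a median of 0.27 under the replicate block.

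The labels do not describe mice of the same number as pairs. The deviations of same-numbered mice from their group means correlated at -0.23, -0.16 and -0.39 for numbers 2, 3 and 5. Each value comes from a single pair of libraries, so that it cannot decide whether the mice were paired. The replicate block, which rests on those 3 numbers, gave 262 genes past the threshold, and differences of 1.04 for Apoa1, 0.92 for Apoa4, 0.30 for Apoc1, 0.27 for Apoc3 and -0.19 for Apoe. Without counts, counting error could not be told from the spread between mice, and low genes such as Apod are the least certain.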
